A study of Homo sapiens with 47 samples.

Results

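The comparison of passage 5 (P5) with passage 2 (P2) rested on 6 of the 47 libraries of the series, 3 whole cultures at each passage, chosen by their time point labels. All 6 came from WA09 (H9), an established line of human embryonic stem cells, in 3 differentiations (r1, r2 and r3) that each gave a P2 and a P5 library. Both groups shared every agent: N2B27 without vitamin A, with CHIR-99021 (a WNT pathway agonist), rhFGF2, AGN193109 (an inverse agonist of retinoic acid receptors) and Y-27632 (a ROCK inhibitor). Cells were kept in it for 36 h to give cells resembling neuromesodermal progenitors (NMPs), then passaged on in it, so that P2 and P5 differ in the number of passages and in no labelled agent. The study states that Y-27632 was given at a higher dose in the earliest passages, P2 among them, than later, so the effects of its dose and of passage number cannot be told apart. The labels call the P5 cells neural progenitors, and the study describes such cultures as a mixture of pre-neural progenitors (PNPs) and neural crest. The question of the comparison was what the cultures lost and gained as they left the NMP state. A single cell line was used, so the 3 differentiations measure the spread between experiments and not between genotypes.

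NMPs are bipotent cells of the tail end of the embryo that feed both the spinal cord and the paraxial mesoderm, the tissue that segments into somites. *TBXT* (Brachyury) and *SOX2* are co-expressed in them, *TBX6* and *MSGN1* drive the mesodermal choice, and *SOX2* is kept in cells that become neural. *HOX* genes are switched on in the order of their position in each cluster, from *HOX1* genes of the hindbrain and neck to *HOX10* to *HOX13* genes of the lumbar, sacral and tail regions. Neural crest arises at the edge of the neural plate, leaves the epithelium and becomes mesenchymal, with *TFAP2A* and *ETS1* among its regulators.

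Values are normalized counts, the deposited RSEM counts per gene scaled for library size and composition. The 6 libraries held 29223838 to 58341520 summed counts, so that low values were limited by few reads in the smaller ones. A gene passed where edgeR gave an adjusted p under 0.01, the groups were 2-fold or more apart and the 6 libraries averaged 100 normalized counts or more. The test took its estimate of spread from all 35 whole cultures. P2.r1 stood apart from the other P2 libraries: its root-mean-square log2 distance was 0.9 to r2 and 1.05 to r3, against 0.44 between r2 and r3 and 0.4 to 0.54 among the P5 libraries. For the genes it moves most, values without it are given too. Mitochondrial genes held 3.93%, 4.62% and 4.08% of the counts at P2 and 4.37%, 2.34% and 2.12% at P5 in r1, r2 and r3. Whether this share bears on the changes below was not tested. In RNA from whole cultures, fewer cells of a type and less RNA per cell cannot be told apart.

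Of 21764 genes tested, 178 (0.818%) were higher and 120 (0.551%) were lower at P5. All 178 risen genes and 112 of the 120 fallen genes had P2 and P5 libraries that did not overlap, as had 11.7% (higher) and 14.4% (lower) of all genes tested. An unadjusted p under 0.05 was reached by 23.5% of all genes tested and an adjusted p under 0.05 by 8.22%. DESeq2 called 1.55% higher and 1.52% lower, and the fit of the 12 libraries of P2 to P5 1.11% and 0.584%. The median log2 fold change of all genes tested was -0.02. Posterior *HOX* genes led the risen genes, and *TFAP2A*, *LUM* and *BMP4* were also among them. The fallen genes included *CDX1*, *FST*, *ZFP42* and *FOXH1*, all genes of the earlier caudal or pluripotent states. *TBX6*, *MSGN1*, *TBXT* and *SOX2* changed by large amounts without passing. The counts of calls depended on single libraries: without P2.r2 57 genes were higher and 35 lower, without P2.r3 72 and 60, and without P2.r1 180 and 188. Leaving out a P5 library gave 132 and 57 (r1), 86 and 31 (r2) and 104 and 25 (r3). Without both libraries of r2 or of r3, only 22 and 10 or 35 and 13 passed.

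For the contrast between the passages, 3 genes were chosen. A neural gene was higher at P5 and a mesodermal gene lower, both without passing. The other, a *HOX* gene, was near the top of the risen list. Shown are the 250 bases upstream of each. They are the bases just before the RefSeq start site (GRCh38.p14) of *SOX2* (chr3:181711675-181711924, plus strand), *MSGN1* (chr2:17816210-17816459, plus strand) and *HOXD10* (chr2:176116528-176116777, plus strand). Capitals mark matches, on either strand, to TCACACC (a T-box half-site), TTTATG (a CDX core) or CTTTGAT (a TCF and LEF core).
SOX2: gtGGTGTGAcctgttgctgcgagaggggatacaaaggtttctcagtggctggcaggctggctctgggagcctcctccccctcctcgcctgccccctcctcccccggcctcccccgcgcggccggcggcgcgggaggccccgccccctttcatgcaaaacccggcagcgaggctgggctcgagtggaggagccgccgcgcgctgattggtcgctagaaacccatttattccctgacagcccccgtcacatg
MSGN1: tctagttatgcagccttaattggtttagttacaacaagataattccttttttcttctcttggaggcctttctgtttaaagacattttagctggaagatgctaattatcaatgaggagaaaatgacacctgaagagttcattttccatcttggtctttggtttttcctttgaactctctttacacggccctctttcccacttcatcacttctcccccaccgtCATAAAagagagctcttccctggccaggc
HOXD10: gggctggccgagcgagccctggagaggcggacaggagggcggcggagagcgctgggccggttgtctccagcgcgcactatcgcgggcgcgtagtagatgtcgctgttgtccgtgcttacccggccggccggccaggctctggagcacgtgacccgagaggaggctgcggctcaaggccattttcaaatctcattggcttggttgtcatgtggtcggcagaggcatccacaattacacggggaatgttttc
The T-box letters stood once in the *SOX2* stretch and in 2.76% of all 35116 promoters of that length, and the CDX letters once in the *MSGN1* stretch and in 9.64%. The TCF and LEF letters, in 2.26% of all promoters, were in none of the 3 stretches. Of the 12 *HOX10* to *HOX13* genes, 7 had a RefSeq promoter in the table used and none of the 7 held any of these letters. The mesoderm lists had 23 such promoters, of which 1 held the TCF and LEF letters, 1 the T-box letters and 2 the CDX letters.

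*TBX6*, *MSGN1*, *RSPO3* and *TBXT* were lower at P5 in every differentiation, although none of them passed. *TBX6* (chromosome 16, 30085793 to 30091887, GRCh38), the T-box gene that commits cells to paraxial mesoderm, had 6719, 1230 and 640 normalized counts at P2 and 71.9, 20.7 and 45.8 at P5 in r1, r2 and r3. The highest P5 library was below the lowest P2 library, and the spread within P2 was about as wide as that gap. Its log2 fold change was -5.80 (SE 1.35 and adjusted p = 0.010 in edgeR), just short of passing (without P2.r1 -4.66, adjusted p = 0.028), and it passed with DESeq2 (adjusted p = 5.2e-06) and when only the 12 libraries of P2 to P5 were fitted (edgeR adjusted p = 0.0055).

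*MSGN1* (chromosome 2, 17816496 to 17817101), which acts with *TBX6* in presomitic mesoderm, had 2384, 113 and 75.6 normalized counts at P2 and 12.6, 15.2 and 8.13 at P5. *RSPO3*, a secreted WNT enhancer made by the same tissue, had 13182, 180 and 91.6 at P2 and 7.11, 3.26 and 12.2 at P5. In both genes P2.r1 was far above the other P2 libraries, and all P2 libraries were above all P5 libraries. Their log2 fold changes were -6.16 (SE 1.84) and -8.31 (SE 2.08), with edgeR adjusted p of 0.042 and 0.015. Without P2.r1 they were -2.60 and -4.27, with adjusted p of 0.3 and 0.1. *TBXT* (chromosome 6, 166157656 to 166168700) had 8318, 1610 and 340 normalized counts at P2 and 310, 197 and 146 at P5, a log2 fold change of -3.68 (SE 1.27 and adjusted p = 0.074 in edgeR). P2.r3 and P5.r1 lay close to each other for *TBXT*, so the groups were barely separate, and without P2.r1 its log2 fold change was -1.83 (adjusted p = 0.36).

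Several genes of the somite, the segmented product of presomitic mesoderm, had higher P2 values in r2 and r3 than in r1. *RIPPLY1*, a repressor that marks the forming somite border, had 0.794, 694 and 1107 normalized counts at P2 and 8.69, 0 and 2.03 at P5. *MEOX1*, a homeobox gene of the somite, had 19.1, 1079 and 2687 at P2 and 34, 21.8 and 28.5 at P5. *FOXC2* had 206, 2204 and 2465 at P2 and 37.9, 10.9 and 13.2 at P5. At P3 the order was turned round: *RIPPLY1* had 3542, 32.7 and 27.5 and *MEOX1* had 3062, 110 and 98.2, with r1 the highest. Over P2 to P5, *RIPPLY1* and *MEOX1* thus had their highest value at P3 in r1 and at P2 in r2 and r3, and both were at 34 or less at P5. *TCF15*, needed for the epithelial somite, had 51.6, 554 and 662 at P2 and 14.2, 18.5 and 12.2 at P5, with a log2 fold change of -4.86 (SE 1.18 and adjusted p = 0.013 in edgeR), and it passed when P2.r1 was left out (adjusted p = 0.0040).

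**Figure D1:**
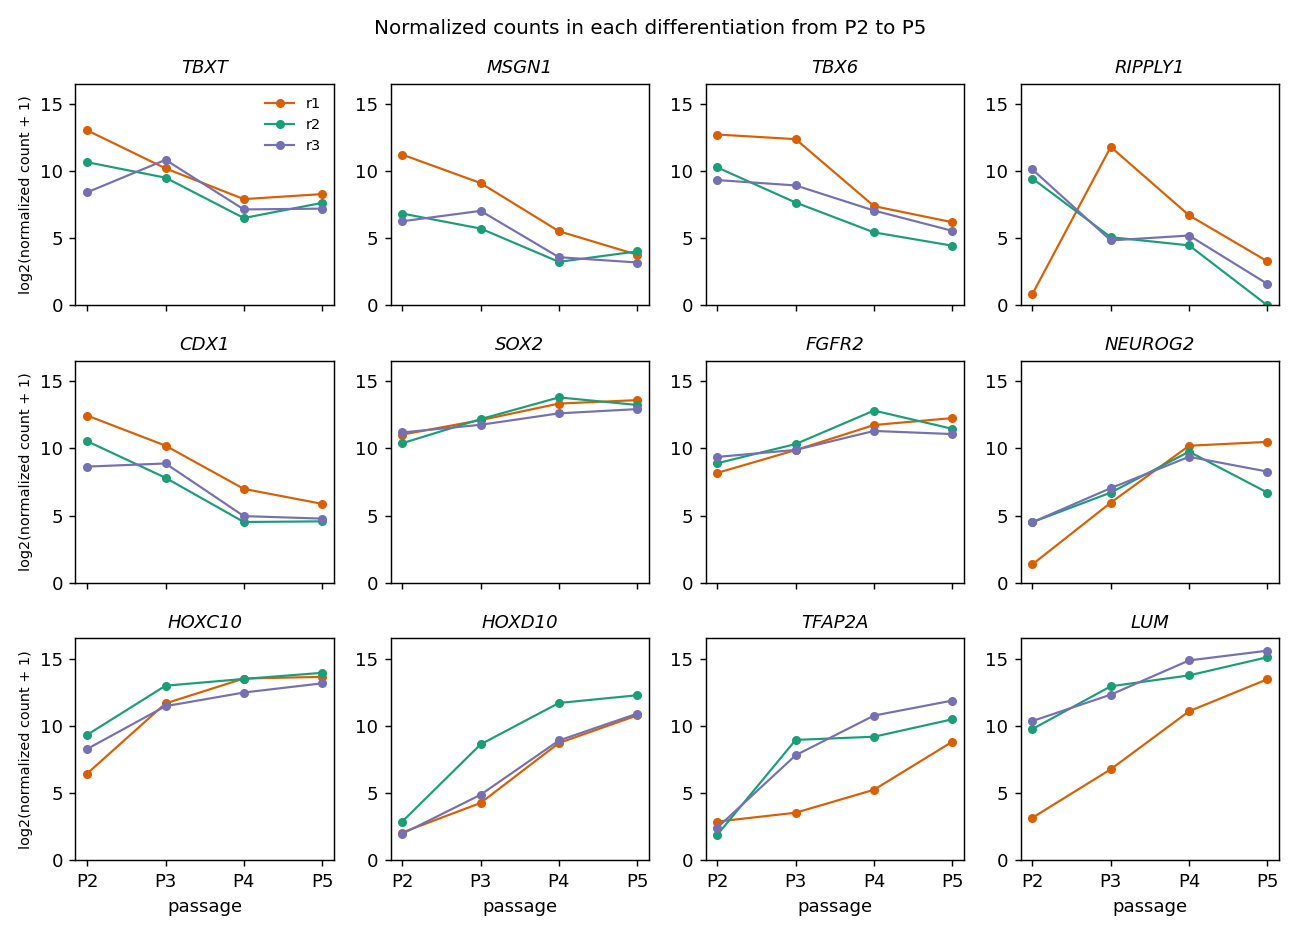
Log2 of the normalized count plus 1 of 12 genes (1 panel each) at P2, P3, P4 and P5, with a line for each of the differentiations r1, r2 and r3. Mesodermal genes mostly end below their P2 values at P5, while *SOX2*, *HOXC10*, *HOXD10*, *TFAP2A* and *LUM* end above theirs. *RIPPLY1* in r1 is an exception, which rises to 3542 normalized counts at P3 and is at 8.69 at P5 from 0.794 at P2.

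Over the list of 21 presomitic and somite genes, 20 were tested, 17 had a log2 fold change below 0 and 11 had P2 and P5 libraries that did not overlap, with the lower values at P5 (14.4% of all genes tested). The median log2 fold change of the list was -4.83, against -0.02 for all genes. None of the 20 passed in edgeR, where 17 had an unadjusted p under 0.05 (23.5% of all genes tested) and 8 were lower at an adjusted p under 0.05 (4.41%), while 9 were called lower with DESeq2 (1.52%). The list of 14 primitive streak and mesendoderm genes, of which 13 were tested, had the same direction, with 12 below 0, a median of -3.22 and none passed in edgeR (5 at an unadjusted and 1 at an adjusted p under 0.05, and 1 called with DESeq2). *MIXL1*, a homeobox gene of the primitive streak, had 15189, 5483 and 928 normalized counts at P2 and 1018, 144 and 173 at P5. The endoderm-forming members *SOX17*, *FOXA2* and *GATA4* never exceeded 19.1 in the 6 libraries. *TBX18*, a T-box gene of the anterior somite, stood against the direction of the somite list, at 1.59, 6.36 and 24.7 at P2 and 89.3, 23.9 and 114 at P5. Summed over both lists, P2 libraries held 81257, 25903 and 19171 normalized counts and P5 libraries 5012, 3236 and 2719.

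The caudal genes of the NMP state did not move as a block. *CDX1* (chromosome 5, 150166795 to 150184558), a caudal homeobox gene, had 5572, 1483 and 400 normalized counts at P2 and 57.7, 22.8 and 26.4 at P5. Every P5 library was below every P2 library, and *CDX1* fell by 5.87 on the log2 scale (SE 0.97 and adjusted p = 7.5e-04 in edgeR), a call kept in 8 of 9 fits that left out libraries. Without P2.r1 the log2 fold change was -4.76. Its paralogue *CDX2* had 16867, 3160 and 2466 at P2 and 14220, 11406 and 7179 at P5, a log2 fold change of 1.02 (SE 0.93 and adjusted p = 0.56 in edgeR). The 2 groups overlapped for *CDX2* because of P2.r1, and the P5 libraries of r2 and r3 were above their own P2 libraries. *CDX4* was low throughout, at 92.9 in P2.r1 and no more than 7.61 elsewhere.

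*FST* (chromosome 5, 53480409 to 53487134), which encodes the activin and GDF antagonist follistatin, had 1875, 1645 and 3992 normalized counts at P2 and 126, 62 and 80.3 at P5. It fell by 4.78 on the log2 scale (SE 0.93 and adjusted p = 0.0028 in edgeR), and the call was lost in 8 of 9 fits that left out libraries, with adjusted p between 0.0028 and 0.058. For the WNT ligands of the caudal epiblast P2.r1 was far above the other P2 libraries. *WNT3A* had 2471, 26.4 and 2.91 normalized counts at P2 and 3.16, 1.09 and 2.03 at P5, and *WNT8A* had 4888, 154 and 106 at P2 and 24.5, 16.3 and 22.4 at P5. Neither passed (edgeR adjusted p = 0.044 and 0.019), with log2 fold changes of -7.33 and -5.29. Without P2.r1 these were -3.27 and -3.02 (adjusted p = 0.31 and 0.1), and the *WNT8A* groups did not overlap. *WNT5A*, a ligand of the non-canonical branch, went the other way, at 21424, 8744 and 6657 at P2 and 40073, 45201 and 25898 at P5, with a log2 fold change of 1.58 (SE 0.89 and adjusted p = 0.29 in edgeR).

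Ligands of the FGF8 family, which hold cells in the undifferentiated caudal state, were lower at P5 by fitted value. *FGF8* had 3554, 448 and 321 normalized counts at P2 and 723, 35.9 and 51.9 at P5, and *FGF17* had 13659, 2294 and 1163 at P2 and 2896, 535 and 477 at P5. P5.r1 was above P2.r2 and P2.r3 for both, so the groups overlapped, although each differentiation was lower at P5 than at P2. Neither passed (edgeR adjusted p = 0.19 and 0.34), and the log2 fold change of *FGF8* was -2.56 (SE 1.17). *NKX1-2*, a homeobox gene of the caudal lateral epiblast, kept a wide range, at 5085, 255 and 36.4 at P2 and 1087, 2878 and 947 at P5. Its log2 fold change was 1.59, and 3.40 without P2.r1 (edgeR adjusted p = 0.47 and 0.12). *GBX2*, also active there, had 2156, 302 and 177 at P2 and 2261, 3532 and 1395 at P5, a log2 fold change of 2.06 (SE 0.64 and adjusted p = 0.048 in edgeR), and passed without P2.r1 (adjusted p = 0.0091). Of the 17 caudal genes, 2 passed, both lower (0.551% of all genes tested), 5 did not overlap with lower values at P5 (14.4%) and 1 with higher values (11.7%), and the median log2 fold change was -2.48.

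*SOX2* (chromosome 3, 181711924 to 181714436), the pluripotency and neural gene of the SOXB1 family, had 2085, 1337 and 2330 normalized counts at P2 and 12355, 9623 and 7783 at P5. Every P5 library was at least 3 times as high as any P2 library, and the increase was present in all 3 differentiations. Its log2 fold change of 2.25 (SE 1.22) did not pass in the fit of all 35 whole cultures (edgeR adjusted p = 0.27), nor with DESeq2 (adjusted p = 0.20). It passed in the fit of the 12 libraries of P2 to P5 alone, with a log2 fold change of 2.34 and an edgeR adjusted p of 0.0035. What set the 2 fits apart for *SOX2* was not tested. Between the passages compared, *SOX2* had 4403, 4635 and 3463 at P3 and 10345, 14224 and 6245 at P4, so that the P5 values of r1 and r3 were the highest of P2 to P5 and that of r2 was below its P4 value.

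Per transcript length, *SOX2* was at 31.1, 21.3 and 39.4 TPM at P2 and at 215, 169 and 135 TPM at P5, and *TBXT* at 145, 30.5 and 6.27 TPM and then 6.1, 4.03 and 2.89 TPM. At P2, *TBXT* was therefore above *SOX2* in r1 and r2 and below it in r3, and at P5 it was below *SOX2* in every library. *CDX2* had 348, 277 and 159 TPM at P5, so that *SOX2* and *CDX2* were both high there.

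The other pre-neural genes differed in their course. *FGFR2* (chromosome 10, 121478334 to 121598458), an FGF receptor of neural epithelium, had 289, 476 and 659 normalized counts at P2 and 4890, 2811 and 2146 at P5. The groups were well apart, and the log2 fold change of 2.63 (SE 0.67) missed the threshold in edgeR (adjusted p = 0.017) and passed with DESeq2 (adjusted p = 8.2e-04) and in the fit of P2 to P5 (edgeR adjusted p = 0.0087). *NEUROG2*, a proneural bHLH gene, had 1.59, 21.8 and 21.8 at P2 and 1434, 104 and 309 at P5, with a log2 fold change of 4.30 (SE 1.24 and adjusted p = 0.035 in edgeR). *SOX21*, a SOXB2 gene, had 4.76, 10.9 and 14.5 at P2 and 391, 139 and 112 at P5 (log2 fold change 3.90, SE 1.55 and adjusted p = 0.12 in edgeR). Both had their highest P5 value in r1, the differentiation with the lowest P2 value.

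*POU3F2*, a POU class III gene of early neural cells, had 486, 3907 and 4274 normalized counts at P2 and 2832, 1168 and 1323 at P5. *HHIP*, a Hedgehog-binding antagonist, had 192, 4268 and 3836 at P2 and 6168, 2846 and 3940 at P5. For both genes r1 was higher at P5 than at P2, and r2 was lower, so that the fitted log2 fold changes of -1.08 (SE 0.84) and 1.01 (SE 0.98) stood for opposite movements (edgeR adjusted p = 0.48 and 0.59). *SP8* had 2298, 298 and 298 at P2 and 1152, 424 and 382 at P5, with r1 lower at P5 and the others slightly higher. *ZIC5*, a zinc finger gene of the neural plate, was higher in every P5 library, at 618, 1603 and 1479 at P2 and 4350, 3611 and 2635 at P5 (log2 fold change 1.46, SE 0.44 and adjusted p = 0.041 in edgeR). Of the 16 pre-neural genes, 11 had a log2 fold change above 0 and 7 did not overlap with the higher values at P5, where 11.7% of all genes tested did so. None passed in edgeR (4 at an unadjusted p under 0.05, against 23.5% of all genes tested, and 3 higher at an adjusted p under 0.05, against 3.81%), 1 passed with DESeq2 and 2 in the fit of P2 to P5, and the median was 0.83.

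Several genes of the later neural tube were low at both passages. *PAX6* had 72.2, 1.82 and 4.36 normalized counts at P2 and 32.4, 0 and 0 at P5, *SOX1* had 102, 32.7 and 52.3 and then 90.8, 5.44 and 3.05, and *IRX3* had 19.8, 101 and 286 and then 285, 26.1 and 59. r1 held the highest value of each at P5. None of the 11 tested neural progenitor genes passed in edgeR or DESeq2, and in edgeR 4 had an unadjusted p under 0.05 (23.5% of all genes tested) and 1 an adjusted p under 0.05 (8.22%). *NKX6-1*, a ventral progenitor gene, stood apart from them and held the largest value of the list, at 278, 1372 and 1415 at P2 and 358, 92.5 and 253 at P5. Of the 11, 6 had a log2 fold change above 0 and 5 below. The groups did not overlap for 2 with higher values at P5 and for 0 with lower values (11.7% and 14.4% of all genes tested). Of the 14 neuronal genes tested none passed in edgeR, 4 had an unadjusted p under 0.05, a share near that of all genes (23.5%), and 1 was called lower with DESeq2 (1.52%). *STMN2*, a neuronal microtubule regulator, was that gene, lower at P5, at 3445, 1932 and 1287 at P2 and 93.2, 442 and 60 at P5. It went against most of its list, in which 11 genes had a log2 fold change above 0 and 3 below. The groups did not overlap for 4 neuronal genes with higher values at P5 and for 1 with lower values (11.7% and 14.4% of all genes tested). The 4, *ELAVL4*, *NEUROG1*, *NHLH1* and *ISL1*, were low, at 149 or less in each of the 6 libraries.

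**Figure D2:**
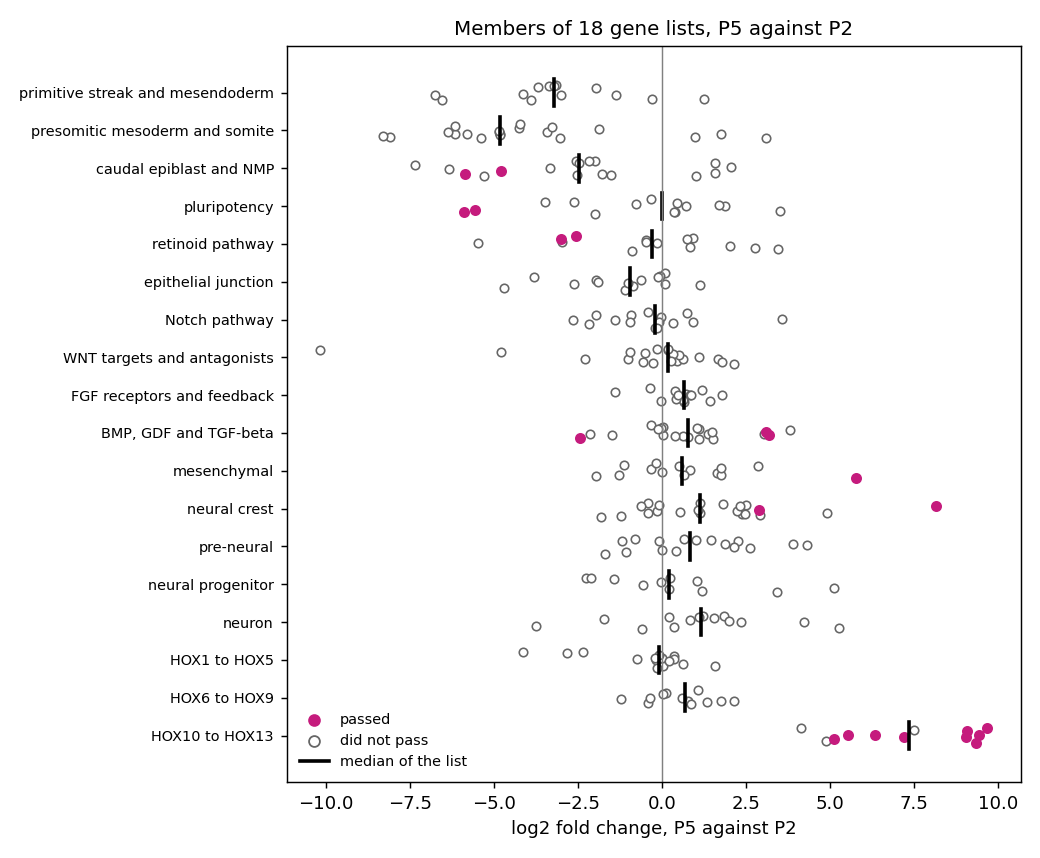
Log2 fold change at P5 against P2 (x axis) of each tested member of 18 gene lists (rows), with members that passed filled and the median of a list as a black bar. The *HOX10* to *HOX13* members lie between 4.12 and 9.67, and the medians of the mesoderm lists are -3.22 and -4.83.

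Posterior *HOX* genes made the sharpest change of the comparison. All 12 genes of *HOX10* to *HOX13* were higher in every P5 library than in any P2 library (11.7% of all genes tested), and 9 of the 12 passed as higher (0.818%). The summed normalized counts of the 12 went from 154, 995 and 490 at P2 to 24370, 51330 and 22833 at P5, and their median log2 fold change was 7.35. *HOXC10* (chromosome 12, 53985065 to 53990279), a lumbar gene, had 86.5, 644 and 310 at P2 and 12804, 15781 and 9188 at P5. It rose by 5.12 on the log2 scale (SE 0.75 and adjusted p = 2.8e-04 in edgeR) and kept its call in all 9 fits that left out libraries. *HOXA10* (chromosome 7, 27170591 to 27180261) had 19.8, 321 and 151 at P2 and 5730, 9452 and 6101 at P5, with a log2 fold change of 5.53 (SE 0.59 and adjusted p = 1.0e-05 in edgeR), also kept in all 9.

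*HOXD10* (chromosome 2, 176108790 to 176119942) was near the limit of detection at P2, at 3.18, 6.36 and 2.91 normalized counts, and had 1755, 4960 and 1923 at P5. Its log2 fold change was 9.43 (SE 0.91 and adjusted p = 3.0e-06 in edgeR), kept in all 9 fits. *HOXD11* had 2.38, 1.82 and 5.82 at P2 and 766, 3782 and 1587 at P5, and *HOXC11* had 2.38, 0.909 and 1.45 at P2 and 422, 1827 and 585 at P5, with log2 fold changes of 9.35 (SE 1.46) and 9.04 (SE 1.51) and edgeR adjusted p of 4.7e-04 and 8.6e-04. With so few reads at P2, the size of these fold changes is uncertain, and their calls were kept in 7 and 6 of 9 fits.

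The terminal genes were uneven between differentiations. *HOXC12* had 4.76, 6.36 and 7.27 normalized counts at P2 and 14.2, 5763 and 353 at P5, and *HOXD12* had 0.794, 0.909 and 0 at P2 and 26.1, 1303 and 215 at P5. *HOXC13* had 62.4, 1428 and 158 and *HOXD13* had 130, 1443 and 211 at P5, against 8.73 or less at P2. *HOXB13* had 12.6, 518 and 21.4 at P5 and *HOXA13* had 37.9, 582 and 166, against 10.3 or less at P2, and neither passed (edgeR adjusted p = 0.12 and 0.031). r2 had the highest P5 value and r1 the lowest in all 6 of these genes. *HOXD12*, *HOXC13* and *HOXD13* passed, with calls kept in 4, 4 and 3 of 9 fits, and without P5.r2 the highest value left was 353, of *HOXC12*.

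None of the 15 genes of *HOX1* to *HOX5* passed in edgeR, and their median log2 fold change was -0.10. Of these, 4 had an unadjusted p under 0.05 in edgeR, and DESeq2 called 2 lower. None of the 12 of *HOX6* to *HOX9* passed, with a median of 0.68. Here 2 had an unadjusted p under 0.05, and DESeq2 called 1 higher. Of all genes tested, 23.5% had an unadjusted p under 0.05, and DESeq2 called 1.55% higher and 1.52% lower. Of the *HOX6* to *HOX9* genes, 6 did not overlap with higher values at P5 and 1 with lower values (11.7% and 14.4% of all genes tested). *HOXB1*, the anterior gene at the start of its cluster, had 6511, 1323 and 1021 normalized counts at P2 and 310, 64.2 and 99.6 at P5, a log2 fold change of -4.13 (SE 1.02 and adjusted p = 0.015 in edgeR) that passed in the fit of P2 to P5 (adjusted p = 0.0011). *HOXB9* had 31221, 17115 and 34099 at P2 and 23983, 22456 and 13369 at P5. *HOXC6* and *HOXC9* were higher in every P5 library, at 3662, 6254 and 5457 and then 14532, 16743 and 10135 for *HOXC6* (log2 fold change 1.35, SE 0.87 and adjusted p = 0.38 in edgeR). Both passed in the fit of P2 to P5 (adjusted p = 0.0069 and 0.0020), as did *HOXB8* in the lower direction (log2 fold change -1.20, adjusted p = 0.0087). Per transcript length, *HOXC10* reached 347, 427 and 245 TPM at P5, in the range of *HOXB9* at 406, 385 and 225 TPM.

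**Figure D3:**
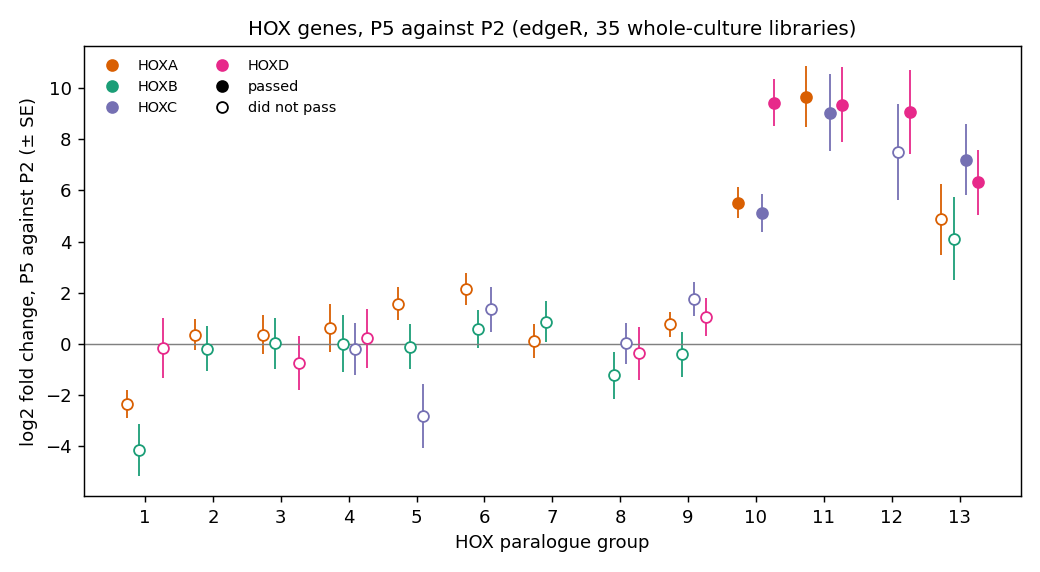
Log2 fold change at P5 against P2 with its standard error (y axis) for the 39 *HOX* genes by paralogue group (x axis), coloured by cluster and filled where the gene passed. Points of groups 10 to 13 lie between 4.12 and 9.67 and those of groups 1 to 9 between -4.13 and 2.14.

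Of the 21 neural crest genes tested, *TFAP2A* and *ETS1* passed, both higher at P5. *TFAP2A* (chromosome 6, 10393186 to 10419659) had 6.35, 2.73 and 4.36 normalized counts at P2 and 451, 1435 and 3770 at P5, a log2 fold change of 8.16 (SE 1.35 and adjusted p = 7.8e-04 in edgeR), with the call kept in 5 of 9 fits. *TFAP2C*, a gene of the same family placed in the surface ectoderm list, had 64.3, 26.4 and 48 at P2 and 1085, 1570 and 871 at P5 (log2 fold change 4.66, SE 0.72 and adjusted p = 4.4e-04 in edgeR), kept in 8 of 9. *ETS1*, a crest regulator best known from the head and heart, had 125, 714 and 1483 at P2 and 3319, 4169 and 5699 at P5. It rose by 2.89 on the log2 scale (SE 0.62 and adjusted p = 0.0061 in edgeR), and the call was lost in all 9 fits that left out libraries, with adjusted p between 0.010 and 0.066.

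Other crest genes were split. *TFAP2B* had 17.5, 1.82 and 13.1 normalized counts at P2 and 165, 253 and 1002 at P5 (edgeR adjusted p = 0.015, and 0.0092 without P2.r1). *PAX3*, of the dorsal neural tube and crest, had 2196, 775 and 1019 at P2 and 6304, 3689 and 3595 at P5 (adjusted p = 0.019), and *MITF*, the regulator of pigment cells, had 234, 65.4 and 32 and then 1230, 592 and 598 (adjusted p = 0.011, and 0.0025 without P2.r1). *SOX10*, which marks migrating crest, had 11.1, 36.4 and 85.8 at P2 and 63.2, 124 and 768 at P5, overlapping between groups (log2 fold change 2.51, SE 0.93 and adjusted p = 0.096 in edgeR). *SOX9* had 695, 1075 and 3422 and then 1145, 2099 and 3694, and *SNAI1* had 2402, 387 and 324 and then 370, 340 and 1317, both overlapping. The log2 fold change of *SNAI1* was -1.22, and 1.06 without P2.r1. Of the 21 crest genes, 2 passed as higher (0.818% of all genes tested did), 14 had a log2 fold change above 0 and 7 below, and 9 did not overlap with higher values at P5 (11.7% of all genes tested). DESeq2 called 7 of them higher and 338 of all genes, the fit of P2 to P5 6 and 242, and the median log2 fold change was 1.13. In *TFAP2A*, *TFAP2B* and *SOX10*, r1 had the lowest and r3 the highest P5 value.

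Of the 14 mesenchymal genes 1, *LUM*, passed as higher (0.818% of all genes tested). *LUM* (chromosome 12, 91102629 to 91111831), which encodes the collagen-binding proteoglycan lumican, had 7.94, 866 and 1312 normalized counts at P2 and 11347, 35285 and 49452 at P5. It rose by 5.78 on the log2 scale (SE 1.13 and adjusted p = 0.0029 in edgeR), kept in 4 of 9 fits. In the list 9 genes had a log2 fold change above 0 and 5 below, 4 did not overlap with higher and 3 with lower values at P5 (11.7% and 14.4% of all genes tested), and the median was 0.59. *DCN*, *KERA*, *TIMP3*, *TGFBI* and *PRRX1*, outside the lists and chosen after their values were seen, also passed. *TGFBI*, a secreted protein that binds collagen, had 1479, 1107 and 749 at P2 and 40038, 65045 and 28871 at P5 (log2 fold change 5.28, SE 0.48 and adjusted p = 2.1e-06 in edgeR). *PRRX1*, a homeobox gene of mesenchyme, had 216, 950 and 702 at P2 and 16251, 18681 and 24932 at P5 (edgeR adjusted p = 7.8e-04). Other members of the list lay on both sides of 0 without passing. *SPARC*, a collagen-binding matrix protein, had 24188, 19341 and 18494 at P2 and 50799, 113980 and 50307 at P5, and *TNC* (tenascin C) had 3460, 199 and 185 and then 7077, 8188 and 3963 (edgeR adjusted p = 0.037 and 0.060). *VIM* had 67535, 123151 and 132922 at P2 and 55456, 37877 and 42689 at P5, and *COL1A1* had 5183, 5921 and 8923 and then 1979, 1465 and 1145 (edgeR adjusted p = 0.028 and 0.065).

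Ligands of the TGF-beta superfamily changed in part. *BMP4* (chromosome 14, 53949736 to 53958761), a dorsal signal that induces crest, had 566, 1818 and 1437 normalized counts at P2 and 6426, 8905 and 14037 at P5, a rise of 3.09 on the log2 scale (SE 0.56 and adjusted p = 0.0017 in edgeR, kept in 4 of 9 fits). *TGFB2* had 407, 484 and 183 at P2 and 3978, 3335 and 2022 at P5 (log2 fold change 3.17, SE 0.65 and adjusted p = 0.0040 in edgeR, kept in 2 of 9). *CHRD*, the BMP antagonist chordin, fell by 2.45 (SE 0.50 and adjusted p = 0.0040 in edgeR), from 353, 317 and 295 to 87.7, 35.9 and 46.8, and kept its call in 3 of 9 fits, with adjusted p up to 0.081. *GDF11*, a ligand of the posterior trunk, had 3992, 5706 and 5766 at P2 and 10854, 13407 and 8991 at P5. Its P5 libraries were all above its P2 libraries, and its log2 fold change of 1.11 (SE 0.27 and adjusted p = 0.014 in edgeR) passed with DESeq2 (adjusted p = 0.0017). Of the 21 genes of this list, 2 passed as higher and 1 as lower (0.818% and 0.551% of all genes tested), with a median of 0.77.

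The genes of the retinoid list that passed were lower at P5. *RDH10*, which oxidizes retinol on the way to retinoic acid, had 700, 7624 and 16507 normalized counts at P2 and 844, 572 and 1343 at P5. It fell by 3.00 on the log2 scale (SE 0.56 and adjusted p = 0.0022 in edgeR), although r1 was slightly higher at P5 and the groups overlapped. It kept its call without P2.r1 (adjusted p = 8.7e-06), 1 of the 3 of 9 fits leaving out libraries in which it did so. *ALDH1A2*, the retinaldehyde dehydrogenase of somites, had 167, 4330 and 6551 at P2 and 110, 31.5 and 61 at P5 (log2 fold change -5.46, edgeR adjusted p = 0.025). Of the 14 genes 2 passed, both lower (0.551% of all genes tested). In the list 6 had a log2 fold change above 0 and 8 below, and the median was -0.31.

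No member of the WNT, FGF receptor, Notch or epithelial junction lists passed in edgeR. Of their 20, 14, 15 and 14 members, 5, 6, 5 and 4 had an unadjusted p under 0.05, where 23.5% of all genes tested had, and DESeq2 called 1, 2, 0 and 4 (1.55% of all genes higher and 1.52% lower). The 4 epithelial junction genes were lower with DESeq2, and 4 of that list were lower in edgeR at an adjusted p under 0.05 (4.41%). *DKK1*, a WNT antagonist, had 30994, 37640 and 16406 normalized counts at P2 and 2025, 108 and 870 at P5 (edgeR adjusted p = 0.051) and was called lower with DESeq2. *AXIN2*, a general WNT target, had 11494, 24610 and 15555 at P2 and 23712, 12220 and 16967 at P5. *NOTCH2* had an adjusted p of 0.0031 at a log2 fold change of 0.93 (SE 0.18), below the fold minimum. The keratin genes *KRT8*, *KRT18* and *KRT19* were lower in every P5 library, *KRT8* at 23682, 8266 and 7434 and then 2088, 2310 and 1262 (edgeR adjusted p = 0.022). *CDH1*, the epithelial cadherin, stayed at 10.9 or less.

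Among pluripotency genes, *ZFP42* and *FOXH1*, 2 of 14, passed as lower (0.551% of all genes tested), and 3 did not overlap with lower values at P5 (14.4%). *ZFP42* (REX1; chromosome 4, 187995771 to 188005050), a zinc finger gene of stem cells, had 3709, 1902 and 1082 normalized counts at P2 and 26.1, 16.3 and 60 at P5. It fell by 5.89 on the log2 scale (SE 0.64 and adjusted p = 1.1e-05 in edgeR), kept in all 9 fits. *FOXH1*, a partner of SMAD proteins in Nodal signalling, had 487, 45.4 and 77.1 at P2 and 3.16, 3.26 and 4.07 at P5 and fell by 5.55 (SE 0.87 and adjusted p = 4.7e-04 in edgeR, kept in 8 of 9). Without P2.r1 its log2 fold change was -4.18 (adjusted p = 0.0019). *POU5F1* (OCT4) had 873, 10.9 and 13.1 at P2 and 28.4, 19.6 and 17.3 at P5, so that P2.r1 alone was above 28.4, and without it the log2 fold change went from -2.62 to 0.24. *LIN28A* stayed high, at 66937, 40088 and 35255 and then 65295, 62575 and 43334 (log2 fold change 0.38, SE 0.94 and adjusted p = 0.86 in edgeR). The median of the 14 genes was 0.01.

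The remaining genes with the largest falls had varied roles. *IL18*, a cytokine, had 194, 260 and 220 normalized counts at P2 and 0.79, 1.09 and 2.03 at P5, the largest fall among the named genes that passed, kept in 2 of 9 fits (log2 fold change -7.61, SE 1.49 and adjusted p = 0.0032 in edgeR). *NTS* (neurotensin) had 1293, 800 and 257 and then 7.9, 4.35 and 9.15, and *VRTN* had 2227, 424 and 305 and then 25.3, 3.26 and 10.2. *VRTN* kept its call in all 9 fits and *NTS* in none. *SLC6A12*, a betaine transporter, and *PLAC1* shared the pattern of the somite genes, with low values in P2.r1 (13.5 and 73.8) and high ones in r2 (292 and 1729) and r3 (327 and 1851). Both kept their calls in 2 of 9 fits. *ST8SIA3*, a sialyltransferase, had 877, 697 and 441 and then 28.4, 20.7 and 12.2. *NR6A1*, a nuclear receptor of the early trunk chosen after its values were seen, had 22754, 13276 and 11211 at P2 and 2368, 742 and 2303 at P5 (log2 fold change -3.16, SE 0.40 and adjusted p = 5.8e-05 in edgeR).

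The values at P3 and P4, from the same 3 differentiations, are set beside those of P2 and P5 with no test. *TBX6* had 5285, 200 and 485 normalized counts at P3 and 166, 42.2 and 132 at P4, and *CDX1* had 1179, 224 and 470 and then 126, 22 and 30.2. Most of the distance to the P5 values was thus covered by P4 in both genes. *HOXC10* was at 3259, 8118 and 2825 at P3, while *HOXD10* was at 18.2, 393 and 28.3 and reached 422, 3332 and 480 at P4. *NEUROG2* was highest at P4 in r2 and r3, at 1174, 865 and 664 in r1, r2 and r3. *TFAP2A* had 10.6, 495 and 224 at P3 and 36.9, 583 and 1739 at P4, and *LUM* had 108, 7871 and 5116 and then 2173, 13830 and 29892. For both, r1 was the lowest library at every passage from P3 to P5.

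Markers of cell types that the labels do not name were low in the 6 libraries, with a few exceptions. The 5 endoderm genes summed to 3.05 to 10.9 normalized counts, and the 4 notochord and floor plate genes to 27.8 to 38.2 at P2 and 30.5 to 88.5 at P5. *MYOG*, *TTR*, *KRT14* and *GATA1* were at 0 in all 6. The surface ectoderm list summed to 49.1 to 169 at P2 and 905 to 1584 at P5, with *TFAP2C* at 871 to 1570, *TP63* at no more than 52.1 and *KRT5* at 0 in all P5 libraries. *KDR*, a receptor of endothelium and early mesoderm, had 590, 33.6 and 58.2 at P2 and 22.1, 28.3 and 19.3 at P5, with *PECAM1* and *CDH5* at 8.13 or less. *DES*, a muscle filament gene, had 459, 75.4 and 50.9 and then 14.2, 416 and 113, with *MYOD1* at 1.59 or less. The lateral plate list summed to 77 to 340 at P2 and 31.5 to 187 at P5. The intermediate mesoderm list held *PAX2* at 1028, 977 and 1224 at P2 and 543, 112 and 363 at P5, and summed to 1026 to 1371 and then 191 to 626. *LHX2*, of the forebrain list, was higher at P5, at 31, 16.4 and 45.1 and then 125, 850 and 1376 (edgeR adjusted p = 0.010, not passed), as was *EN1*, of the midbrain, at 213, 51.8 and 30.5 and then 499, 609 and 369 (adjusted p = 0.11). *SIX3* of that list was at 3.18 or less. The part of these cells in the changes above was not tested.

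At P5 the labels also give fractions of the same differentiations, enriched for epithelial cells (EPI, the PNPs) or mesenchymal cells (MES, the crest) by selective detachment. These 6 libraries were not used to choose the risen genes. The planned edgeR test called none of the 178 risen genes in either direction (smallest adjusted p of all 17664 genes 0.01, with 6585 genes at an unadjusted p under 0.05), whereas DESeq2 called 41 higher in EPI and 35 higher in MES (2.52% and 2.8% of all genes tested). A count with no test was therefore added after the data were seen. Of the 178 risen genes, 26 (14.6%) were at least 2-fold higher in EPI in all 3 differentiations and 32 (18%) at least 2-fold higher in MES. The shares among all 12998 genes with a mean of at least 100 were 1.5% and 2.22%. These shares are not on an equal footing. The risen genes were chosen for high values at P5, whereas the 12998 include genes near 0 there. How much of the difference comes from this choice was not tested.

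The risen genes on the epithelial side included *HOXC10*, *HOXC11*, *HOXD10*, *HOXD11* and *HOXD13*. *HOXC10* had 15906, 18810 and 16182 normalized counts in EPI and 6622, 9271 and 3386 in MES, and *HOXD10* had 1931, 5370 and 2979 in EPI and 846, 2518 and 583 in MES. Both fractions held these genes far above the P2 cultures. On the mesenchymal side were *TFAP2A*, *ETS1*, *BMP4*, *LUM*, *DCN*, *KERA* and *TIMP3*. *LUM* had 2109, 19858 and 29683 in EPI and 37627, 83802 and 79530 in MES, and *BMP4* had 2256, 5875 and 9273 and then 20057, 16257 and 19204. *TFAP2A* had 110, 960 and 2449 in EPI and 1574, 3033 and 5934 in MES.

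Some of the named genes that did not pass between P2 and P5 were also uneven. *SOX2* had 14797, 11795 and 10162 normalized counts in EPI and 5296, 4164 and 1943 in MES, a mean log2 difference of 1.79. *FGFR2*, *NEUROG2*, *SOX21*, *CDX2* and *NKX1-2* were likewise at least 2-fold higher in EPI in all 3 differentiations. *TBX6* and *MSGN1* were low in both fractions. *TBX6* had 48.5, 16.6 and 24.6 in EPI and 55.8, 17.5 and 27.1 in MES, and *MSGN1* had 20.1, 7.92 and 16.7 and then 23.4, 6.81 and 10.6. Of the 120 fallen genes, 1 (0.833%) was at least 2-fold higher in EPI and 3 (2.5%) in MES. The fallen genes were chosen for low values at P5, and some were near 0 in the whole cultures there. For *IL18* these were 0.79, 1.09 and 2.03. A 2-fold gap between fractions was harder to reach for such genes, so these shares cannot be set against those of the risen genes.

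**Figure D4:**
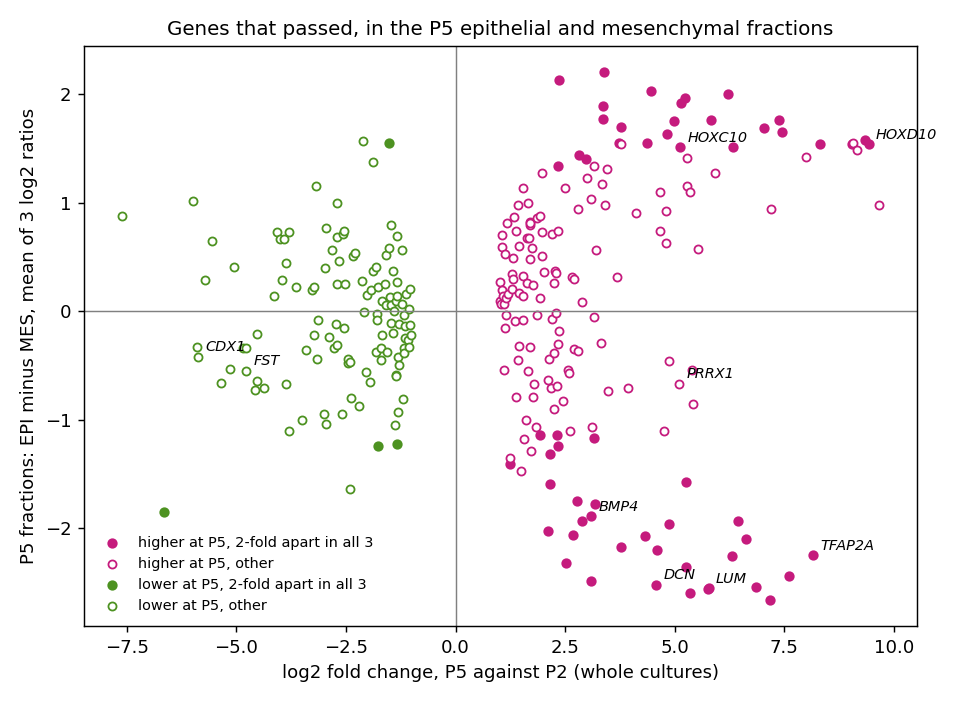
Each point is a gene that passed between P2 and P5, placed by its log2 fold change in whole cultures (x axis) and by the mean log2 ratio of EPI to MES at P5 over 3 differentiations (y axis). Filled points are at least 2-fold apart in all 3: 58 of the 178 risen genes, 26 above and 32 below 0, and 4 of the 120 fallen genes.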

How the data were processed

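Total RNA was polyA-selected and sequenced as 75 bp single-end reads on a HiSeq 4000, per the labels. The submitters' processing notes name cutadapt 1.16, STAR 2.5.2b, RSEM 1.3.0 and GRCh38, and the strand setting is not given in the sources used here. The authors deposited expected counts per gene, which RSEM divides between genes that share reads (8.47% to 10.0% of the values in the 6 libraries were not whole), and TPM, which are those counts per transcript length, scaled per library. Of 58051 genes, 57447 were matched to a GENCODE 29 symbol. For *HOXC5*, which has a pair of identifiers, the first was used.

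Expected counts were rounded. Normalized counts are counts divided by TMM size factors over all 47 libraries, with a geometric mean of 1. edgeR 4.0.16 (R 4.3.3, limma 3.58.1) fitted all 35 whole cultures with time point and differentiation as terms (quasi-likelihood F-test, filterByExpr, Benjamini-Hochberg over all genes), with a common biological coefficient of variation of 34% and 21 residual degrees of freedom. An SE is the log2 fold change divided by the square root of F. EPI and MES were compared in a fit of those 6 libraries. Log2 ratios between fractions used a pseudocount of 1. The fit was also run on simulated data, with the same spread for every gene and no differences between differentiations. That setting is simpler than these data, in which P2.r1 stood apart, so the run does not measure how reliable the calls are.

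The series text says that each experiment gave all time points, so a number marks 1 differentiation. Deviations of same-numbered P2 and P5 libraries correlated at -0.02, -0.16 and 0.12 over 12998 genes, and of differently numbered ones at -0.15 to 0.19. Replicate libraries differed by more than sampling noise.

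Named genes are, for rises and for falls, the 10 largest changes of genes that passed and moved alike in all 3 pairs, members of the lists that passed (up to 4 per list and direction), and genes the study names. The comparison, the 26 lists (329 genes) and these rules were chosen with earlier results of these data known. Some genes are not reported here by name but enter the counts. Alternatives were DESeq2 1.42.0, no block, other sets of libraries, other scaling, filters and thresholds, and libraries left out. Promoters came from RefSeq (GRCh38.p14).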

Additional observations from a re-analysis of the deposited data

How the results depend on the processing

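The numbers of genes higher and lower at P5 (178 and 120) moved by over 1.5 times under these settings: 46 and 23 with the 6 compared libraries and no replicate block, 1 and 0 with those 6 and the replicate block, which left 2 residual degrees of freedom, 338 and 331 with DESeq2, 368 and 349 at an adjusted p under 0.05, and, for the lower genes, 189 without a fold minimum. Without the replicate block in the fit of 35 libraries they were 128 and 97, of which 127 and 93 were among the genes that passed with it, and the calls of 4 of the 33 named genes that passed were lost. Leaving out libraries gave 22 to 180 higher and 10 to 188 lower genes. It ended the call of 5 to 24 of the 33, and 8 of the 33 kept theirs in all 9 such fits. The fit of P2 to P5 gave 242 and 127, with 141 and 63 shared. The cause was not tested. For risen genes higher in EPI and in MES (0 and 0), DESeq2 gave 41 and 35, no count filter 42 and 41, the untested count of genes at least 2-fold apart 26 and 32, and leaving out a replicate 0 to 21 and 0 to 27. No named gene that passed changed its direction. Of those that did not pass, 7 did in some settings: *NKX1-2* (1.59) was at -0.10 without the replicate block in both sets of libraries, and *IRX3* (0.21) at -0.11 in those fits, -0.58 with the 6 libraries and the block and -0.14 in the fit of P2 to P5. Leaving out libraries gave log2 fold changes of -2.98 to 0.96 for *CDX4*, -0.21 to 1.75 for *HHIP*, -0.38 to 0.45 for *SP8*, -2.11 to 1.44 for *IRX3*, -2.11 to 1.06 for *SNAI1* and -3.44 to 0.68 for *POU5F1*. Genes with few reads at P2 set the limit of depth: *HOX11* to *HOX13* genes had 10.3 normalized counts or less in each P2 library, and the size of their fold changes is uncertain.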

Other observations

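Some long noncoding RNAs passed between P2 and P5. The strand setting of the counting is not given in the sources used here, so reads of an antisense gene and of the gene it overlaps cannot be told apart. *HOTAIR*, transcribed within the *HOXC* cluster, had 2.38, 4.54 and 5.82 normalized counts at P2 and 450, 6232 and 1309 at P5, a log2 fold change of 9.15 (SE 1.61 and adjusted p = 0.0014 in edgeR), kept in 6 of 9 fits that left out libraries. *HOXC-AS3*, chosen after its values were seen, had 0, 4.54 and 4.36 at P2 and 512, 625 and 302 at P5. For *HOTAIR*, r2 was the highest and r1 the lowest at P5, the same order as for the terminal *HOX* genes. *DNM3OS*, the transcript antisense to *DNM3*, had 2.38, 3.64 and 2.91 at P2 and 137, 1026 and 1011 at P5 (log2 fold change 7.61, SE 1.23 and adjusted p = 6.4e-04 in edgeR). *LINC00458* fell by 5.71 (SE 1.25 and adjusted p = 0.0067 in edgeR), from 1404, 162 and 50.9 to 11.1, 2.18 and 8.13, and P2.r1 held most of it. Its call was kept in 1 of 9 fits and lost without P2.r1 (log2 fold change -3.68, adjusted p = 0.038).

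*FBXL21*, a member of the F-box family that GENCODE 29 lists as a transcribed unitary pseudogene, had 22.2, 4.54 and 5.82 normalized counts at P2 and 2599, 5441 and 2526 at P5, a log2 fold change of 8.32 (SE 1.01 and adjusted p = 4.1e-05 in edgeR) kept in all 9 fits. Other genes that passed, chosen after their values were seen, were the Hedgehog co-receptors *BOC* (414, 310 and 1687, then 2100, 4172 and 6655) and *CDON* (1612, 762 and 1046, then 4331, 3977 and 7445), both higher at P5. Without P2.r1 the call of *BOC* was lost (edgeR adjusted p = 0.033, against 0.0096 with it), while *CDON* had an adjusted p of 0.0032. *TGFB1* fell, from 1399, 1963 and 2184 to 165, 226 and 188 (edgeR adjusted p = 0.0097), while *TGFB2* rose. The call of *TGFB1* was lost without both libraries of r1 (edgeR adjusted p = 0.034).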
